A study of Mus musculus with 4 samples.

Results

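The genes described here build the oxidative phosphorylation machinery of mitochondria. They were picked by name alone: every gene whose symbol starts with Nduf, Uqcr, Sdh, Atp5, Cox4, Cox5, Cox6, Cox7, Cox8 or mt- in both deposited gene tables, without Ndufa4l2, Cox6a2 and pseudogenes marked -ps. This gave 106 genes out of 30406 gene IDs listed in both tables, of which 93 are encoded in the nucleus and 13 in the mitochondrial genome. The nuclear genes held 36 complex I subunits and 8 complex I assembly factors, 4 complex II subunits and 4 complex II assembly factors, 8 genes of complex III, 18 of complex IV and 15 of complex V. The mt- encoded genes held 7 subunits of complex I, 1 of complex III, 3 of complex IV and 2 of complex V.

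The study asked which tumor-infiltrating leukocytes (TILs) take up material from tumor cells. Wild-type C57BL/6 mice carried subcutaneous tumors of a single-cell clone of B16-F10, a mouse melanoma line, in which doxycycline (dox) switches on ZsGreen (ZsG), a cytoplasmic green fluorescent protein. Mice were given dox in their water and TILs were collected on day 8, so all groups share the same tumor clone, host and treatment. Sorting by ZsG gave a negative and a positive gate of CD45-positive cells and, in another experiment, of CD45-positive TCRb-positive T cells. The paper reports that the CD45 sort took bright cells as positive, so most lymphocytes carrying ZsG were in its ZsG-negative gate. Each gate is 1 library, 4 in all, so a gate difference compares 2 libraries, the spread among animals is unknown and no test was run. All intervals are exact 95% intervals and cover counting error only.

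In the respiratory chain, complex I takes electrons from NADH and complex II takes them from succinate, as an enzyme of the TCA cycle that has no mt- encoded subunit. Complex III passes the electrons to cytochrome c and complex IV passes them to oxygen. Complexes I, III and IV pump protons across the inner membrane, and complex V, the ATP synthase, uses that gradient to make ATP. Mitochondrial genes are read from long transcripts that start in the mitochondrial genome itself, whereas nuclear genes each have a promoter of their own. T cells that leave the naive state and start to divide are known to raise both glycolysis and mitochondrial respiration, and macrophages under low oxygen are known to lean on glycolysis.

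Promoters are shown for 4 nuclear genes that the results below return to or that stand for the binding letters searched. RefSeq promoter sequences (GRCm38.p6, the patch release of the mm10 build) matched 79 of the 93 nuclear genes, and the 250 bases before each start site were searched on both strands. The letters GCGCATGCG, a core of the site of NRF1, a factor known for nuclear genes of respiration, were present in 7 genes (8.86%), against 1.64% of the promoters of 26994 genes. The ETS letters CCGGAAG, bound by the GABP family, were present in 16 genes (20.3%, against 7.82%), the YY1 letters AAGATGGCG in 1 gene (1.27%, against 0.708%) and the TATA box letters TATAAA in 6 genes (7.59%, against 14.3%). At least 1 of the NRF1, ETS and YY1 motifs was present in 21 genes (26.6%, against 9.73%). A match is a match of letters, not a measured binding site. The printed stretches run from 250 to 50 bases before the start site, on the minus strand, with matched motifs in capitals. Atp5l (chr9:44920793-44920992), a membrane subunit of complex V, held NRF1, ETS and TATA letters. Cox6a1 (chr5:115349009-115349208), the broadly used form of a complex IV subunit, held NRF1 letters, and its ETS letters lie in the 50 bases not printed. Atp5g1 (chr11:96075682-96075881), which encodes the c subunit of the complex V rotor, held none of the motifs in the 250 bases searched. Nor did Cox7a2l (chr17:83514384-83514583), a relative of complex IV subunits. Another gene annotation, GENCODE, puts the start of Cox7a2l further upstream, at 83517330, so the printed stretch lies inside the gene there. Bases before that start were not searched.
Atp5l: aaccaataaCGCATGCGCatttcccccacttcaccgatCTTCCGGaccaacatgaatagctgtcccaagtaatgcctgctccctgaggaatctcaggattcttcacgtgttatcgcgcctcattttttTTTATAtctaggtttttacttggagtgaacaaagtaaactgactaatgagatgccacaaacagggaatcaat
Cox6a1: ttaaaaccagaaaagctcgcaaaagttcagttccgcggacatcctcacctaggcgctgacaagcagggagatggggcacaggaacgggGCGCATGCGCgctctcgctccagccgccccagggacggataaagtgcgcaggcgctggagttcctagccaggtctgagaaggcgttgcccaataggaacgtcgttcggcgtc
Atp5g1: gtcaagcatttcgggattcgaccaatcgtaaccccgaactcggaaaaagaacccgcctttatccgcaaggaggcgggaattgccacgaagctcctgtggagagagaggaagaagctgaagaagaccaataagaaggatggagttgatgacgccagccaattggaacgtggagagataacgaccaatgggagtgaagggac
Cox7a2l: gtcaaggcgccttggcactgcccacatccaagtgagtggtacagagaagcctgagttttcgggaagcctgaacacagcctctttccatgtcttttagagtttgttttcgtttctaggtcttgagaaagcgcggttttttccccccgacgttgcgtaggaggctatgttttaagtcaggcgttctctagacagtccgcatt

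Levels are unique molecular identifiers (UMIs, each standing for a captured RNA molecule) scaled to counts per 1000000 UMIs of the same cells (CPM), and they compare shares of a cell's RNA, not amounts per cell. The CD45 libraries held 5437 (ZsG-negative) and 5168 (ZsG-positive) barcodes, of which 4699 and 4123 cells were kept, with a median of 5769 and 9928 UMIs. The T cell libraries held 1136 (ZsG-negative) and 2396 (ZsG-positive) barcodes, of which 659 and 780 were kept, with a median of 5799 and 6501 UMIs, and 9 and 60 of these fell in a macrophage-led cluster and were set aside. Barcode sequences shared by both libraries of a sort numbered 6 and 1. For the T cell sort, the names within the deposited tables give the libraries in conflicting orders; the library with 2396 barcodes was taken as ZsG-positive, and the signs of every gate comparison of that sort would turn if the libraries were exchanged. Cell classes were built by clustering with all 106 genes left out, and named only as resembling a type by its marker genes (NK-like, T-like and so on, written below without "like"). Markers of their own type were the highest of the marker lists in NK cells (9583 CPM for the NK list), T cells (4727), monocytes (8754), macrophages (10537) and plasmacytoid dendritic cells (pDCs, 10829, with 8076 for the monocyte list). In dendritic cells (DCs), the DC list reached 2027 CPM and was highest among the classes, but the monocyte list (2994) and the macrophage list (2641) were above it there.

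Transcripts of macrophages were more frequent in the ZsG-positive libraries in cells of other types. The libraries also differed in macrophages, with 2254 of 4123 kept cells in the ZsG-positive and 4 of 4699 in the ZsG-negative CD45 library. Whether these transcripts belonged to the cells or to the library as a whole was not tested. UMIs of at least 2 of C1qa, C1qb, C1qc, Apoe and Lyz2 were present in 67.3% of ZsG-positive NK cells against 0.993% of ZsG-negative ones, in 77.5% against 3.06% of T cells of the CD45 sort, in 84.7% against 3.38% of DCs, and in 8.19% against 2.62% of T cells of the T cell sort. The summed level of 8 macrophage genes was 828 against 103 CPM in NK cells, 1389 against 220 in T cells of the CD45 sort, 7616 against 1367 in DCs and 275 against 127 in the T cell sort. All 8 genes had UMIs in each of these groups except ZsG-negative DCs, where C1qa, C1qc and Ms4a7 were at 0. A list of 5 melanocyte genes was low but higher in the ZsG-positive gate of every class compared. Levels were 5.66 against 0.325 CPM in NK cells (3 and 5 UMIs) and 2.42 against 0.443 in T cells of the CD45 sort. They were 6.70 against 0.899 in monocytes, 8.71 against 0 in DCs and 9.72 against 4.25 in the T cell sort. Monocytes express Apoe and Lyz2 themselves, and 95.7% of ZsG-positive and 82.9% of ZsG-negative monocytes passed the same limit. Where cells with macrophage transcripts could be left out, the value without them stands beside the result.

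Among classes of the ZsG-negative CD45 library, the 93 nuclear genes took the largest share of UMIs, summed over cells, in T cells. The smallest was in B cells and monocytes. Their summed level was 25013 CPM (24944 to 25082) in 1535 T cells, 21675 (21601 to 21748) in 2518 NK cells, 20631 (20423 to 20840) in 203 pDCs, 20558 (20339 to 20778) in 148 DCs, 17335 (17162 to 17509) in 252 monocytes and 16209 (15559 to 16879) in 39 B cells. Intervals of neighbours in this order did not overlap, except for pDCs and DCs. As a median over cells, T cells did not lead in this library. The nuclear share was 2.08% in NK cells, 2.06% in DCs, 2.05% in pDCs and 2.01% in T cells. The ZsG-positive library put T cells (218 cells) on top at 26055 CPM (25870 to 26242), followed by 626 DCs at 24141 (24040 to 24241), 2254 macrophages at 24001 (23947 to 24056), 113 NK cells at 22480 (22078 to 22887) and 897 monocytes at 20145 (20040 to 20250). DCs and macrophages had overlapping intervals there. T cells were also the class in which most single genes peaked by summed UMIs. The share of all genes that peak there, or that are lowest in monocytes, was not computed, so the counts below give an order only. Cycling cells made up 31.8% of T cells and 6.83% of NK cells in the ZsG-negative library, and 50% and 8.85% in the ZsG-positive one. Without cycling cells, the nuclear log2 ratio of T over NK cells in the ZsG-negative library was -0.12. Of 88 nuclear genes with at least 100 UMIs over the ZsG-negative classes (B cells aside), 54 were highest in T cells. In monocytes 54 were lowest. Among 90 such genes in the ZsG-positive library, 47 were highest in T cells and 51 lowest in monocytes. The spread between classes was modest, with a median highest-over-lowest fold of 1.60 and 1.47.

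**Figure D1:**
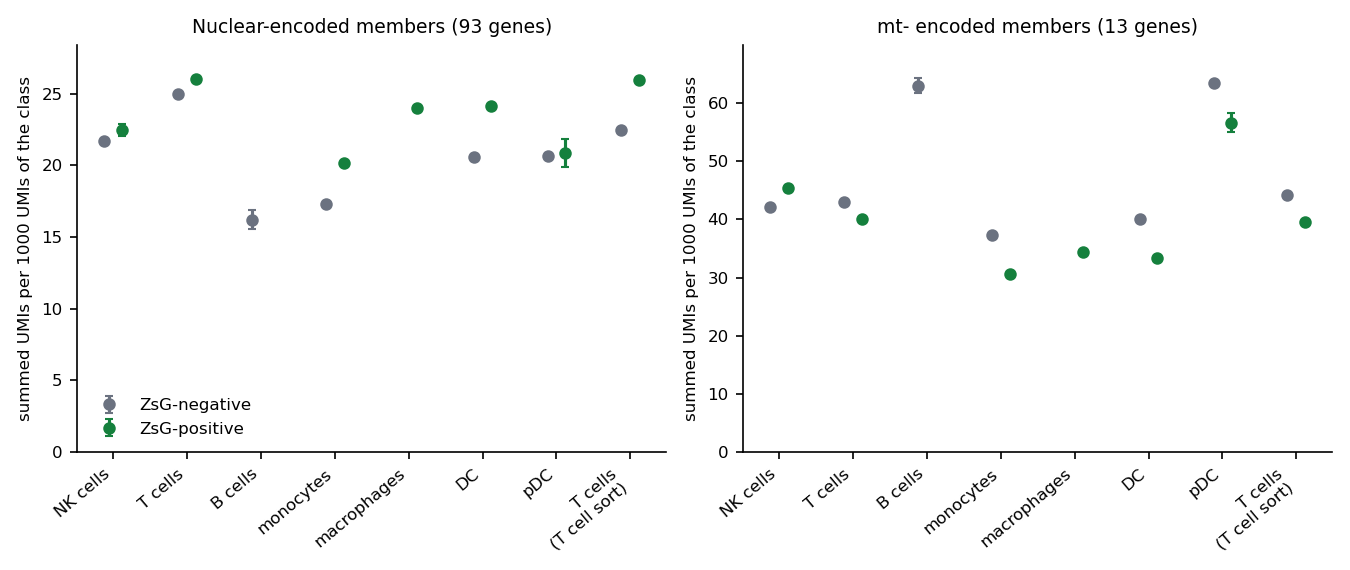
Summed UMIs of the 93 nuclear (left) and 13 mt- encoded (right) genes per 1000 UMIs of each cell class, in the ZsG-negative (grey) and ZsG-positive (green) libraries, with exact 95% Poisson intervals as bars where they exceed the symbol. Monocytes and B cells sit lowest for nuclear genes, and B cells and pDCs sit highest for mt- encoded genes.

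The 13 mt- encoded genes followed another order. In the ZsG-negative library they reached 63495 CPM (63130 to 63862) in pDCs and 63025 (61737 to 64332) in B cells, against 42944 (42854 to 43034) in T cells, 42113 (42011 to 42216) in NK cells, 40048 (39743 to 40355) in DCs and 37285 (37031 to 37539) in monocytes. The pDC and B cell intervals overlapped. In the ZsG-positive library, NK cells had 45342 CPM, T cells 40098, macrophages 34341, DCs 33300 and monocytes 30688. The number of mt- encoded UMIs per nuclear UMI was 3.89 in B cells and 3.08 in pDCs against 1.94 in NK cells and 1.72 in T cells of the ZsG-negative library, and it was 1.43 in macrophages. Cells above a limit on mitochondrial UMIs had been removed, which cuts the top of this range.

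The excess in pDCs was largest for complex IV. These cells, known for making type I interferon, had 36675 CPM of the 3 mt- encoded complex IV genes against 21775 in NK cells, a log2 ratio of 0.75. For mt-Co1, the catalytic subunit, the levels were 12236 and 6196 CPM. Log2 ratios of the other mt- encoded groups were 0.44 for complex V, 0.37 for complex I and 0.35 for complex III. The nuclear genes did not share this: their summed log2 ratio, pDCs over NK cells, was -0.07 (-0.09 to -0.06), and glycolysis genes had -0.63 (-0.68 to -0.59). The ZsG-positive library held 14 pDCs, too few for a ratio between gates, with 20880 CPM (19911 to 21883) of nuclear and 56676 CPM of mt- encoded genes.

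Some nuclear genes stood out in a class, measured as its level over the mean of the other classes of the library. T cells were led by Ndufaf2, a complex I assembly factor, at 44.0 CPM in the ZsG-negative library (log2 1.13 over the other classes) and at 53.2 CPM in the ZsG-positive one (1.22). The assembly factor Ndufaf5 (0.97) and the subunit Ndufa12 (0.93) followed in ZsG-negative T cells, and the assembly factors Sdhaf1 (1.07) and Ndufaf1 (0.88) in ZsG-positive T cells. NK cells were led by Cox7a2 (0.48), Ndufaf2 (0.43) and Atp5d (0.41) in the ZsG-negative library. In the ZsG-positive library they were led by Ndufb11 (0.78), Cox7a2l (0.63) and Uqcrh (0.57), which encodes the hinge protein of complex III. pDCs were led by Ndufaf8 (0.52), Ndufc1 (0.49) and Ndufv3 (0.48). Myeloid classes were led by rare isoforms at low levels. The minimum of 100 UMIs was on the sum over classes. Cox4i2 and Cox7a1 passed it through macrophages, where they were highest, and were at 0 in ZsG-positive NK cells. Their ratios below are therefore descriptions only. Cox6b2, known as a testis form of a complex IV subunit, led ZsG-negative monocytes (1.66) and DCs (0.84), at 12.1 and 8.49 CPM. Ndufaf7 (0.69) and Uqcrfs1 (0.25) followed in these monocytes, and Ndufa6 (0.58) and Ndufaf6 (0.42) in these DCs. ZsG-positive macrophages were led by Cox4i2 (2.22), Cox7a1 (1.46) and Sdhc (0.56), monocytes by Cox4i2 (0.82), Ndufs4 (0.25) and Ndufaf3 (0.06), and DCs by Cox7a1 (1.41), Cox6b2 (1.03) and Ndufaf6 (0.87).

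For the complex IV subunits with rare paralogs among the members (Cox4, Cox6b, Cox7a and Cox8), the common form outweighed the rare forms in every class. Cox4i1 ran from 636 CPM in B cells to 1497 CPM in ZsG-positive pDCs. Cox4i2, a form known to be used under low oxygen, did not exceed 5.99 CPM in any class, its level in macrophages. Cox8a, the small subunit found in most tissues, ran from 689 CPM in ZsG-negative monocytes to 1118 in ZsG-positive NK cells. Its paralogs Cox8b and Cox8c, and Cox7b2, had no UMI in any kept cell of either sort. Cox7a2 ran from 294 to 552 CPM, while Cox7a1, a form of heart and muscle, stayed at or below 8.76 CPM. Cox6b1 ran from 359 to 595 CPM, and Cox6b2 from 0.638 to 13.8 CPM. In the T cell sort, Cox4i2 had 6 UMIs in all, Cox6b2 18 and Cox7a1 25. With the 3 genes at 0, these are the members under 100 UMIs there, so 87 of 93 nuclear genes passed in the T cell sort and 90 in the CD45 sort.

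Gate comparisons were read gene by gene within a class. A gene counted as higher or lower in ZsG-positive cells when its log2 ratio was at least 0.32 in size (5 UMIs for every 4) and it had at least 100 UMIs over both libraries, and the share of all genes past that fold is given beside each count. Members were not matched by level to all genes, and genes with few UMIs pass the fold more often through counting error alone. Ratios are ZsG-positive over ZsG-negative on the log2 scale throughout.

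NK cells differed little between gates in nuclear genes. Their sum was 22480 CPM in 113 ZsG-positive cells and 21675 in 2518 ZsG-negative cells, a log2 ratio of 0.05 (0.03 to 0.08). Of the 93 nuclear genes 87 passed the UMI minimum, 8 were higher and 1 was lower. Of all genes tested, 19.2% were higher and 23.2% were lower. The ZsG-positive NK cells held 530478 UMIs against 15379407, so genes near the minimum had few UMIs there. The lower share of members past the fold was therefore not read as a difference from other genes. The median ratio was 0.06 for members and -0.02 for all genes. Uqcr11, a small complex III subunit, was at 221 against 166 CPM (0.41, 0.13 to 0.68). Ndufs1, an iron-sulfur subunit of complex I, was at 41.5 against 27.7 CPM (0.58), and Ndufaf5 was at 9.42 against 7.02 CPM (0.42), with intervals that include 0. The largest negative ratios were those of Ndufaf6 (-1.94, resting on 1 UMI in the ZsG-positive cells), Sdhb (-0.24) and Ndufa6 (-0.19), again with intervals that include 0. All 13 mt- encoded genes had ratios above 0, with a sum of 45342 against 42113 CPM (0.11, 0.09 to 0.13). The complex I gene mt-Nd1 had the largest such ratio whose interval leaves out 0, at 2126 against 1687 CPM (0.33, 0.25 to 0.42). Without cells that hold macrophage transcripts (37 and 2493 cells left), the sums gave 0.03 (-0.02 to 0.08) for nuclear and 0.05 (0.01 to 0.08) for mt- encoded genes. Inside the Gzma/Klra8-led and the Xcl1/Ncr1-led clusters the nuclear ratios were 0.08 and 0.15 and the mt- encoded ratios -0.02 and -0.05, so the mt- encoded sum did not keep its sign there. The Gzmc-led cluster, with 14 ZsG-positive cells and thus no ratio, had 54254 CPM (53164 to 55362) against 43438 (43238 to 43640) of mt- encoded genes. The sign also turned at a stricter limit of 5% mitochondrial UMIs per cell (-0.01). With TMM factors, a scaling that centres most genes on 0, the nuclear ratio was -0.01.

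T cells of the CD45 sort also differed little between gates in nuclear genes. The ZsG-negative gate of that sort also held most lymphocytes carrying ZsG, as stated above, so its gates separate bright lymphocytes from the rest. The sums were 26055 against 25013 CPM (0.06, 0.05 to 0.07) in 218 and 1535 cells. Of the 87 nuclear genes that passed, 0 were higher and 2 were lower, against 16.2% and 13.4% of all genes, and medians were 0.07 for members and 0.04 for all genes. The 2 lower genes were Cox7a2l, at 267.5 against 353 CPM (-0.40, -0.51 to -0.29), and Sdhd, a membrane anchor of complex II, at 81.2 against 102.5 CPM (-0.34, -0.54 to -0.14). Uqcrh had -0.21. The top ratios were those of Uqcrq of complex III (0.30, 0.21 to 0.39), Ndufs1 (0.29) and Ndufc1 (0.28). The mt- encoded sum was 40098 against 42944 CPM (-0.10, -0.11 to -0.09). That sign rested on which cells were counted. Without cells that hold macrophage transcripts (49 and 1488 cells left), the mt- encoded ratio was 0.15 (0.13 to 0.17), and the nuclear one was 0.02 (-0.00 to 0.05). With a looser limit of 25% mitochondrial UMIs the mt- encoded ratio was 0.02. With TMM factors the nuclear ratio was -0.03. Cycling cells made up 50% of ZsG-positive and 31.8% of ZsG-negative T cells.

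Several single members differed widely between the gates of monocytes. The nuclear sum was 20145 CPM in 897 ZsG-positive cells against 17335 in 252 ZsG-negative cells (0.22, 0.20 to 0.23). Of 83 nuclear genes that passed, 37 were higher and 5 were lower, against 25.8% and 32.6% of all genes. Medians were 0.26 for members and -0.06 for all genes. Atp5g1, whose promoter is printed above, was at 447 against 200.5 CPM (1.16, 1.01 to 1.30). Its paralog Atp5g3, which encodes the same mature c subunit, was at 240.1 against 163 CPM (0.56, 0.40 to 0.73), but Atp5g2, the other gene for that protein, was at 279.7 against 271 (0.04, -0.09 to 0.18). The complex I subunits Ndufa12 (137 against 70.1 CPM, 0.97, 0.72 to 1.22) and Ndufc1 (162 against 88.5, 0.87, 0.65 to 1.10) came next. The 5 lower genes included Cox7a2l, at 152 against 422 CPM (-1.47, -1.60 to -1.34). Ndufaf7, a methyltransferase that acts in complex I assembly, was at 13.5 against 44.0 CPM (-1.70, -2.12 to -1.28), and Ndufb11 was at 164 against 223 (-0.44, -0.59 to -0.28). The remaining ones were Uqcrh (-0.44) and Ndufa6 (-0.38). With TMM factors the nuclear sum gave 0.42 and the mt- encoded sum -0.07. With coarser clusters (resolution 0.4), 647 instead of 897 ZsG-positive cells were classed as monocytes, and the nuclear sum gave 0.10.

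The gates held different monocytes. Of ZsG-negative monocytes, 194 of 252 fell in a cluster led by Hp and Ace, genes of non-classical monocytes, whereas 865 of 897 ZsG-positive monocytes fell in a cluster led by Chil3 and Vcan, genes of classical ones. Inside the Chil3/Vcan-led cluster (865 and 58 cells), the nuclear ratio was 0.26 (20159 against 16779 CPM), and inside the Hp/Ace-led cluster (32 and 194 cells) it was 0.16 (19591 against 17518 CPM). For Atp5g1 the levels were 452 against 230 CPM inside the Chil3/Vcan-led cluster and 235 (168 to 320) against 191 (170 to 213) inside the Hp/Ace-led one, where the intervals overlap. Cox7a2l was at 146 against 263 CPM inside the former and at 394 (305 to 500) against 474 (442 to 509) inside the latter, where the intervals overlap. Its level thus differed between the gates of the Chil3/Vcan-led cluster, and between the clusters in each library. The mt- encoded genes of monocytes went the other way from the nuclear ones, with 30688 against 37285 CPM (-0.28, -0.29 to -0.27), ratios below 0 for all 13 genes and 8 past the fold. Inside clusters this ratio was -0.18 and 0.09, which do not share a sign.

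**Figure D2:**
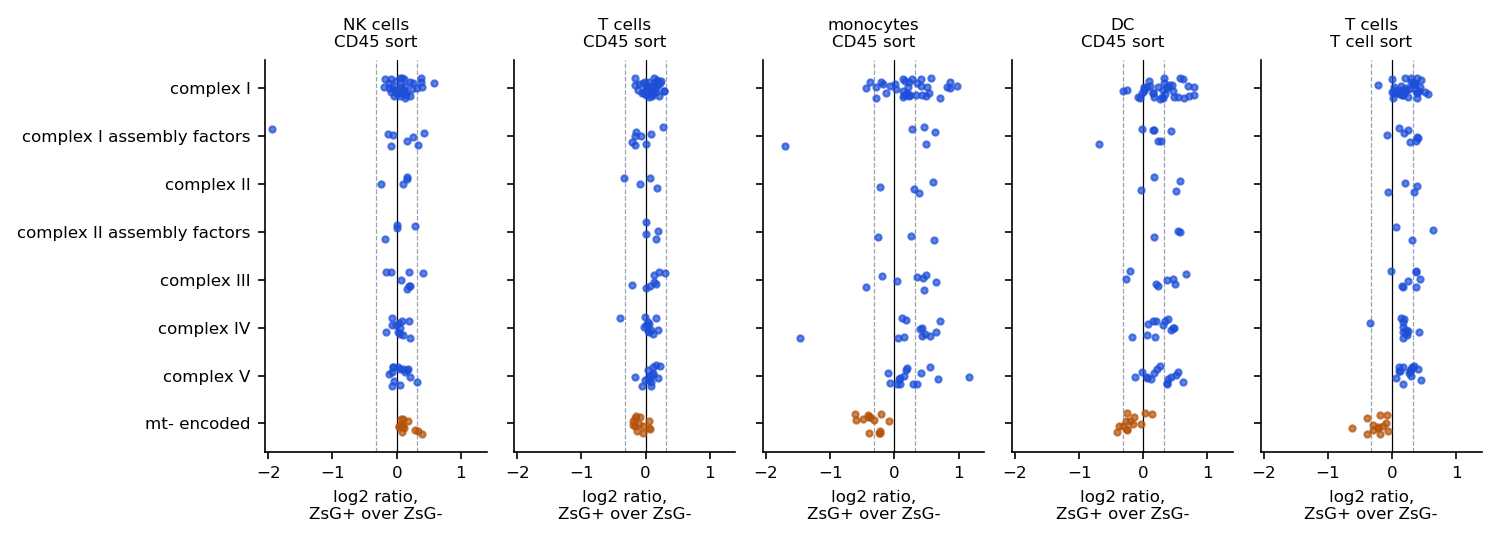
Log2 ratio of each gene with at least 100 UMIs, ZsG-positive over ZsG-negative, by complex, for 5 comparisons of gates within a cell class (1 point per gene; nuclear genes blue, mt- encoded genes brown; dashed lines mark 0.32 in either direction). In monocytes, DCs and T cells of the T cell sort the nuclear genes lie mostly right of 0 and the mt- encoded genes mostly left of it.

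DCs resembled monocytes in the size of the ratios, with 24141 against 20558 CPM of nuclear genes in 626 and 148 cells (0.23, 0.22 to 0.25). Both comparisons use the same 2 libraries. Of 85 nuclear genes that passed, 38 were higher and 1 was lower, against 25.1% and 24.0% of all genes, with medians of 0.27 for members and -0.00 for all genes. Complex II had the largest ratio of the nuclear complexes (428 against 335 CPM, 0.35), with Sdhb, its iron-sulfur subunit, at 195 against 136 CPM (0.52, 0.32 to 0.72). Ndufv3, a small subunit of complex I, had 191.5 against 110 CPM (0.80, 0.57 to 1.02), Ndufa12 had 0.79 and Ndufs1 had 0.71. The lower gene was Ndufaf7, at 18.5 against 29.7 CPM (-0.68, -1.15 to -0.19). Ndufb11 (-0.32) was just inside the fold, and Uqcrh (-0.26) came next. The mt- encoded sum was 33300 against 40048 CPM (-0.27, -0.28 to -0.25), with mt-Co1 at 5020 against 6634 CPM (-0.40) and mt-Nd1 on the other side at 1838 against 1679 (0.13, 0.07 to 0.19). Nuclear ratios were 0.28 inside the Cd209a-led cluster and 0.14 inside the Xcr1-led cluster, and mt- encoded ratios were -0.36 and -0.08. The Fscn1/Ccr7-led cluster (72 ZsG-positive and 14 ZsG-negative cells) had too few cells for a ratio. Its nuclear level was 21018 CPM (20723 to 21316) against 18882 (18162 to 19623). Its mt- encoded level went the other way from the class, at 32266 (31900 to 32634) against 28567 (27680 to 29476). Without DCs that hold macrophage transcripts (96 and 143 cells left), the nuclear ratio was 0.18 (0.15 to 0.20) and the mt- encoded one -0.24 (-0.26 to -0.22).

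T cells of the T cell sort had a larger nuclear ratio than those of the CD45 sort, a difference that was not tested. The gates of the sorts are not alike, since the positive gate of the CD45 sort took bright cells. The 93 nuclear genes summed to 25986 CPM (25862 to 26111) in 720 ZsG-positive cells and to 22458 (22322 to 22593) in 650 ZsG-negative cells (0.21, 0.20 to 0.22). Of 86 nuclear genes that passed, 28 were higher and 1 was lower, against 21.7% and 16.9% of all genes, with medians of 0.24 and 0.04. The ratios were alike across complexes: 0.22 for complex I, 0.25 for complex II, 0.21 for complex III, 0.18 for complex IV and 0.23 for complex V. Sdhaf1, an assembly factor that helps place iron-sulfur clusters in complex II, led with 62.2 against 40.0 CPM (0.64, 0.38 to 0.90). Ndufb8, a complex I subunit (258.9 against 176.7 CPM, 0.55, 0.43 to 0.67) and Ndufab1, the mitochondrial acyl carrier protein (223 against 157 CPM, 0.50, 0.38 to 0.63), followed. The lower gene was Cox7a2l, at 328 against 418 CPM (-0.35, -0.44 to -0.26). Ndufa6 (-0.21) and Ndufaf6 (-0.09) came next. All 13 mt- encoded genes had ratios below 0, with 39493 against 44162 CPM in sum (-0.16, -0.17 to -0.15). Without T cells that hold macrophage transcripts (661 and 633 cells left), the ratios were 0.22 and -0.16.

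Most of that gap was not seen when T cells were compared inside their clusters. Naive-like cells had 16091 CPM of nuclear genes in the ZsG-positive and 15947 in the ZsG-negative library, and the cluster led by the cell cycle genes Pclaf and Top2a had 29601 and 29815. Ratios were 0.06 in Lag3-led and 0.03 in Ifng-led exhausted CD8-like cells, 0.03 in effector memory CD8-like cells, 0.02 in conventional CD4-like cells, 0.04 in the Klra7/Klra1-led and 0.09 in the Ifit1/Mx1-led cluster, 0.01 in naive-like cells and -0.01 in the Pclaf/Top2a-led cluster. The Ly6c2/Art2b-led cluster (16 ZsG-positive and 21 ZsG-negative cells) had too few cells for a ratio, with 23827 CPM (22946 to 24732) against 20737 (20036 to 21457) of nuclear genes and 48231 against 42681 of mt- encoded genes. These clusters did not hold like numbers of cells from each gate, with 87 ZsG-positive and 36 ZsG-negative cells in the Lag3-led cluster, 74 and 25 in the Pclaf/Top2a-led cluster, and 39 and 85 in the naive-like cluster. Cycling cells made up 18.8% of ZsG-positive and 6.46% of ZsG-negative T cells. The mt- encoded genes did not share a sign among clusters. Levels were higher in ZsG-positive effector memory CD8-like (44423 against 41845 CPM), conventional CD4-like (47789 against 43375) and Ifit1/Mx1-led cells (45081 against 43433). They were lower in the Ifng-led (32795 against 33956.5 CPM), Klra7/Klra1-led (52351 against 53230) and Pclaf/Top2a-led clusters (34496 against 34613). The Klra7/Klra1-led and Pclaf/Top2a-led intervals overlapped. With the 9 clusters that have a ratio weighted equally, the nuclear ratio was 0.06 and the mt- encoded one was -0.01.

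Among clusters with a ratio, the highest nuclear one was that of the regulatory-like cluster, the Foxp3-expressing CD4 T cells that hold back immune responses. Here the nuclear genes had 25486 CPM (25109 to 25868) in 97 ZsG-positive cells and 20899 (20197 to 21619) in 28 ZsG-negative cells, a ratio of 0.29 (0.23 to 0.34). The mt- encoded ratio was -0.27 (-0.31 to -0.23), at 32696 against 39347 CPM. Atp5g1 was at 243 (207 to 283) against 81.1 (43.2 to 139) CPM there, and Sdhaf1 at 119 (94.2 to 147) against 37.4 (13.7 to 81.4) CPM. Glycolysis genes moved with it, at 9610 against 5275 CPM, as did the share of cycling cells (17.5% against 3.57%), and the part of cycling cells in this ratio was not tested.

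**Figure D3:**
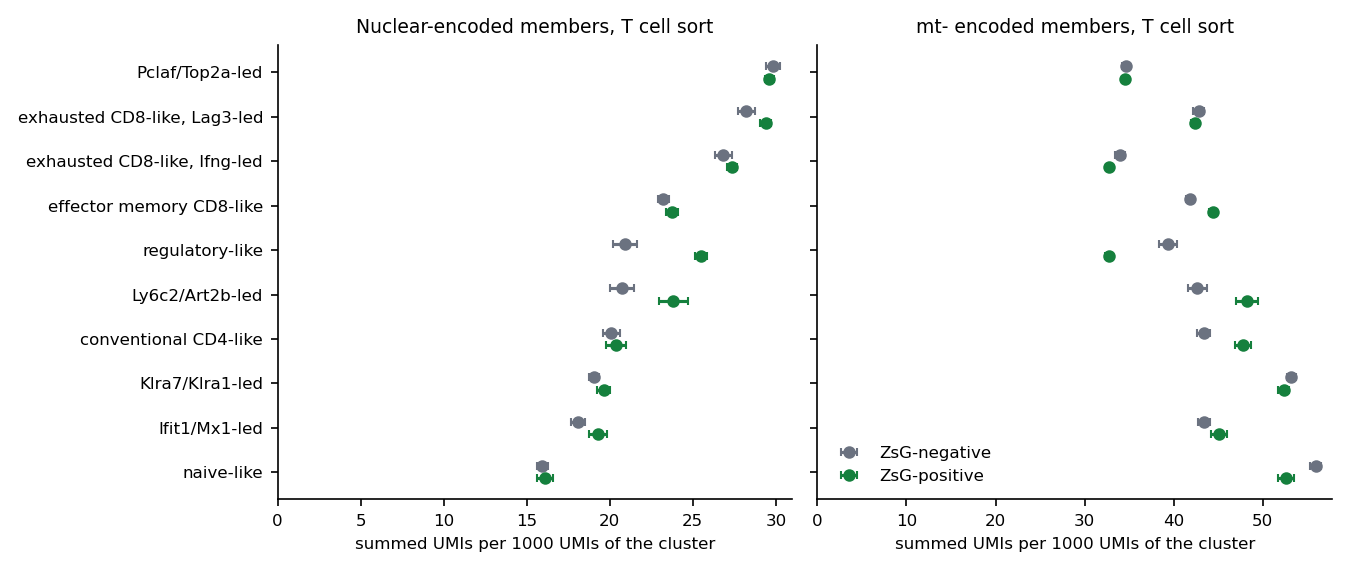
Summed UMIs of nuclear (left) and mt- encoded (right) genes per 1000 UMIs in 10 clusters of the T cell sort, ZsG-negative in grey and ZsG-positive in green, with exact 95% Poisson intervals. The clusters differ more among themselves than the gates do inside most clusters, with naive-like cells near 16 and Pclaf/Top2a-led cells near 30 for nuclear genes.

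T cell states differed widely in both libraries. Lag3-led exhausted CD8-like cells, which carry inhibitory receptors after lasting stimulation, had 28214 CPM of nuclear genes against 15947 in naive-like cells of the ZsG-negative library (0.82, 0.78 to 0.86). In the ZsG-positive library the levels were 29382 and 16091 (0.87, 0.82 to 0.92). The mt- encoded genes went the other way, with ratios of -0.39 and -0.31. The least was seen for mt-Cytb, the only mt- encoded gene of complex III (-0.11 and -0.06), and the most for the mt- encoded complex I genes (-0.62 and -0.49). Nuclear complexes had ratios from 0.55 (complex III) to 0.89 (complex IV) in the ZsG-negative library. Among nuclear genes, Ndufb8 was at 239 against 93.2 CPM in ZsG-negative cells and at 286 against 104 in ZsG-positive cells. Cox7a2l was lower in these cells than in naive-like cells, at 359 against 570 CPM and 299 against 585 CPM. Depth differed as well: a Lag3-led cell had a median of 9728 UMIs and a naive-like cell 6555 in the ZsG-negative library.

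T cell clusters of the CD45 sort also differed widely in nuclear genes. T cells of the S1pr1/Il7r-led cluster had 17347 CPM of nuclear genes in the ZsG-negative and 17594 in the ZsG-positive library, and T cells of the Pdcd1/Pclaf-led cluster, of which 84.9% and 92.8% were cycling, had 27593 and 27201. Between T cells and NK cells of the ZsG-negative library the nuclear ratio was 0.21 (0.20 to 0.21). Of 87 nuclear genes that passed, 34 were higher in T cells and 1 was lower, against 28.0% and 29.7% of all genes, with medians of 0.27 and -0.03. The largest ratios were those of Ndufaf6 (0.95), Ndufab1 (0.83, 247 against 139 CPM) and Ndufaf5 (0.73), and the lower gene was Ndufa6, at 193 against 248 CPM (-0.36, -0.43 to -0.30), ahead of Ndufb11 (-0.23) and Ndufa7 (-0.17). The mt- encoded ratio was 0.03 (0.02 to 0.03). The order of T and NK cells depended on which cells were counted and how. Without cycling cells the nuclear ratio was -0.12, and as a mean over cells, in which each cell weighs the same, it was 0.02. Cycling cells were 6.64% of Icos/Ctla4-led and 0.286% of S1pr1/Il7r-led ZsG-negative T cells, so cycling T cells lay mostly in the Pdcd1/Pclaf-led cluster. Leaving them out also takes out most of that cluster, and cycling and cell state cannot be told apart here. Among NK cells themselves, the Gzma/Klra8-led cluster had 19767 CPM, the Xcl1/Ncr1-led one 22451 and the Gzmc-led one, with 62.0% cycling cells, 24018.

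**Figure D4:**
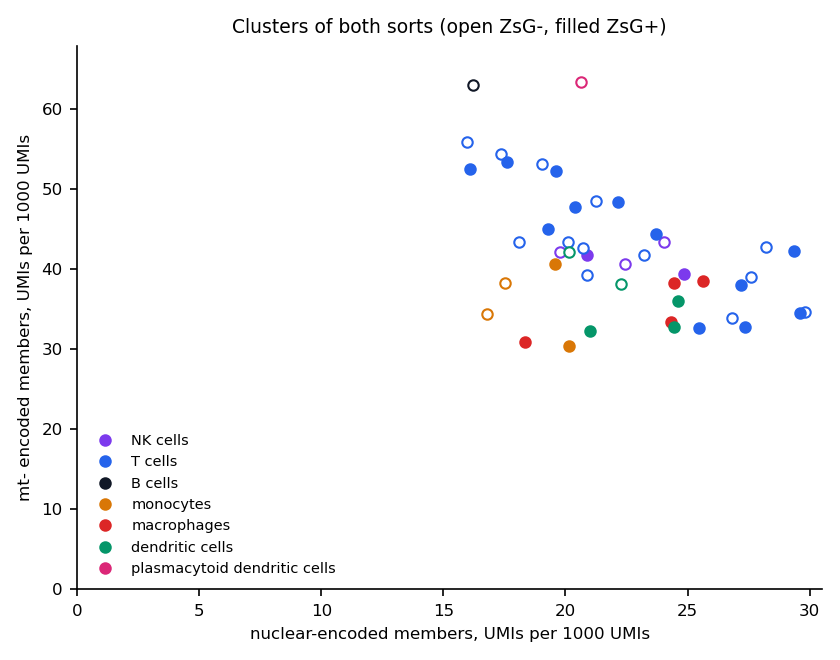
Summed nuclear (x axis) against mt- encoded (y axis) UMIs per 1000 UMIs, 1 point per cluster and library with at least 20 cells, colored by class, open for ZsG-negative and filled for ZsG-positive. T cell clusters run from naive-like cells at the upper left (about 16 nuclear, 56 mt- encoded) to cycling cells at the lower right (about 30 and 35), and pDCs and B cells lie highest.

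Macrophages were compared in the ZsG-positive library alone, since the ZsG-negative one held 4. They had 24001 CPM of nuclear genes against 20145 in ZsG-positive monocytes (0.25, 0.24 to 0.26), and their mt- encoded ratio was also above 0 (0.16, 0.16 to 0.17; 0.09 without cycling cells and 0.06 with coarser clusters). Of 90 nuclear genes that passed, 39 were higher and 2 were lower, against 38.1% and 15.6% of all genes, so the count of higher genes was near the background and the count of lower genes was below it. The medians were 0.29 and 0.18. The largest ratios were those of the rare isoform Cox7a1 (8.76 against 3.13 CPM, 1.48, 0.85 to 2.18), Ndufa5 (119.5 against 63.8 CPM, 0.90, 0.76 to 1.05) and Cox4i2 (0.81). The smallest were those of Cox6b2 (-1.03), Ndufaf7 (-0.50) and Uqcrh (-0.17). Cox7a1 and Cox4i2 reached the UMI minimum through the macrophages, where they were higher. Complex II had the largest ratio among the complexes (0.44, 489 against 361 CPM). For Atp5g2 the levels were 476 and 279.7 CPM (0.77, 0.70 to 0.84).

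Within macrophages, a cluster was led by Mmp12 and Hilpda, the latter a gene known to respond to low oxygen. The nuclear genes had a lower summed level in this cluster. The nuclear sum was 18356 CPM (18209 to 18503) in its 422 cells against 24323 (24256 to 24391) in 1518 C1qa/Ms4a7-led cells, a ratio of -0.41 (-0.42 to -0.39). Of 89 nuclear genes that passed, 3 were higher and 58 were lower, against 18.4% and 44.8% of all genes, with medians of -0.53 and -0.25. Complex II had the lowest ratio (-0.77), then complex I (-0.52), complex V (-0.45), complex III (-0.29) and complex IV (-0.27). Gene medians were -0.60 for complex I, -0.62 for complex II, -0.37 for complex III, -0.19 for complex IV and -0.55 for complex V. Complex IV was thus not below the -0.25 of all genes, and 4 of its 14 genes that passed were lower by the fold. Ndufa4, a subunit first placed in complex I and now known in complex IV, was at 187 against 435 CPM (-1.22, -1.34 to -1.10). Sdhb was at 110.2 against 240.0 CPM (-1.12, -1.28 to -0.97). The complex I assembly factor Ndufaf4 was at 10.4 against 26.1 CPM (-1.32, -1.87 to -0.82). The 3 higher genes were Cox4i2 (11.98 against 5.83 CPM, 1.04, 0.48 to 1.57), Cox7a1 (0.45) and Ndufaf7 (0.44), the last 2 with intervals that include 0.

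The mt- encoded genes of this cluster did not move together. mt-Nd1 was at 899 against 1890 CPM (-1.07, -1.13 to -1.02) and mt-Cytb at 1829 against 3004.5 (-0.72), while mt-Co1 was at 6378 against 5016 (0.35, 0.32 to 0.37) and mt-Co2 and mt-Co3 differed by 0.01 and 0.02. The complex I genes ran from mt-Nd1 to mt-Nd6 at 21.8 against 13.7 CPM (0.67, 0.27 to 1.05), with 5 of 7 lower by the fold, and the complex V genes mt-Atp6 and mt-Atp8 had -0.11 and 0.20. In sum the ratio was -0.11 (-0.12 to -0.10), with 2 genes higher and 6 lower by the fold. Of all genes tested, 18.4% were higher and 44.8% were lower, so these counts were near the background. The median ratio was -0.11 for mt- encoded genes and -0.25 for all genes. TCA cycle genes were lower too, 13 of 14 by the fold, as were 59 of 78 mitochondrial ribosome genes, while all 15 glycolysis genes were higher (16658 against 8844 CPM in sum). Glycolysis genes took part in the clustering, so they help define this cluster and their ratio is a description. The cells had a median of 6592 UMIs against 11827 in the C1qa/Ms4a7-led cluster. The third cluster, led by Top2a and C1qa with 88.2% cycling cells, had 25647 CPM of nuclear and 38528 CPM of mt- encoded genes.

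**Figure D5:**
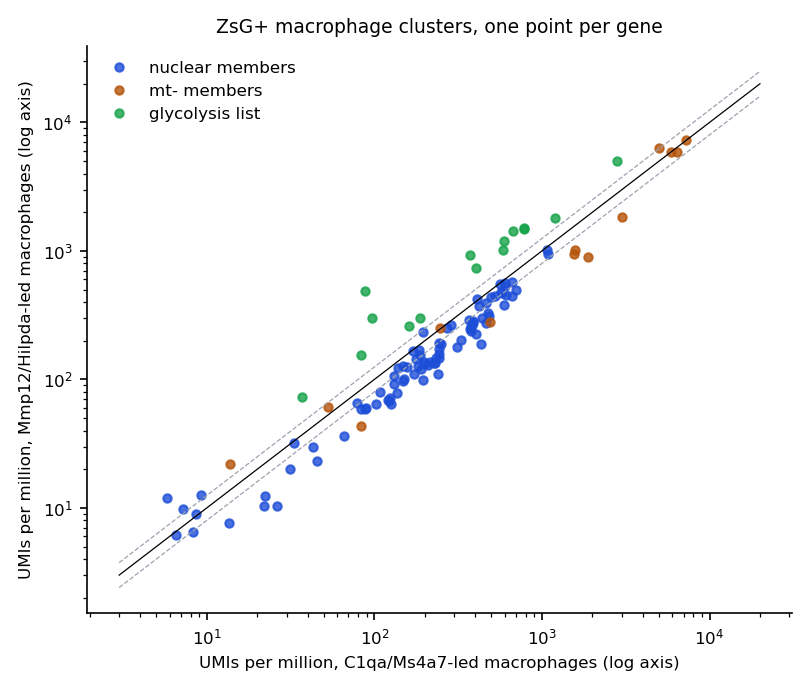
Level of each gene in Mmp12/Hilpda-led (y axis) against C1qa/Ms4a7-led macrophages (x axis) of the ZsG-positive library, in CPM on log axes, with the line of equality and dashed lines at a log2 ratio of 0.32 in either direction. Nuclear genes (blue) lie mostly below the line, glycolysis genes (green) above it, and mt- encoded genes (brown) on both sides.

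Other pathway genes give the scale of these differences. Glycolysis genes had larger gate ratios than the nuclear genes of respiration outside NK cells, where the ratios were 0.08 and 0.05 with overlapping intervals. They were 0.33 in T cells and 1.36 in monocytes of the CD45 sort (7671 against 2985 CPM), 1.03 in DCs and 0.61 in the T cell sort (6680 against 4382 CPM). Of 15 such genes 1 was higher by the fold in NK cells, with 3 lower, and 8, 15, 14 and 10 were higher in the other comparisons, with 0 lower. Of the TCA cycle genes that passed, 4 of 13 were higher and 1 lower in monocytes, 2 of 14 and 1 in DCs, and 3 of 14 and 0 in the T cell sort, near or below the shares of all genes that were higher (25.8%, 25.1% and 21.7%). Genes of the mitochondrial ribosome, which translates the mt- encoded messages, were higher for 33 of 75 in monocytes, 29 of 78 in DCs and 41 of 75 in the T cell sort, with 1, 3 and 0 lower. Of the cytosolic ribosome genes 25 of 85 were lower in monocytes, near the 32.6% of all genes, and 34 of 87 in DCs, against 24.0% of all genes, with 2 and 1 higher. All values are shares of the same total, so a lower share of ribosomal protein messages goes with higher shares elsewhere. With mt- and ribosomal protein genes taken out of the total, the nuclear ratios were 0.16 in monocytes, 0.14 in DCs, 0.16 in the T cell sort and 0.01 in T cells of the CD45 sort.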

How the data were processed

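Droplet single-cell RNA libraries of 4 samples were analysed. The authors deposited UMI counts per gene and cell barcode, as 1 matrix per sort that combines both gates. The file headers name Cell Ranger 7.0.0 (CD45 sort) and 6.1.2 (T cell sort), and the submitters' notes name 6.1.2 and mm10. No source used here says if depth was evened out when libraries were combined. The barcode suffix gave the library.

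Cells were kept by the limits of the study's methods (CD45 sort: 1000 to 6000 genes and under 10% mitochondrial UMIs; T cell sort: 50 to 6000 genes, under 15% and at least 0.055% CD3 gene UMIs). Doublets were not called or removed. Clustering used R 4.3.3 and Seurat 5.3.0 (2000 variable genes less the members, 20 principal components, resolution 0.8 and 1.2). Sums per class and library were made in Python 3.11.15 with scipy 1.17.1. Intervals are exact Poisson for sums and exact conditional for ratios, and classes under 20 cells in a library got no ratio. The steps were tested on simulated data. TMM factors came from edgeR 4.0.16.

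Genes were named by rule: the 3 highest and 3 lowest nuclear ratios of each comparison with at least 100 UMIs, the 3 leading genes of each class, all mt- encoded genes and the paralog groups. Members, lists and this rule were chosen with earlier results of these data known, and further genes named beside them were chosen after their values were seen. Cycling cells had UMIs of at least 3 of 12 cell cycle genes. Counts come from RNA 3′ ends, processed pseudogenes may take reads of some members, and Atp5o is uncertain because a second gene ID overlaps it in the T cell sort. The symbols Atp5md, Atp5mpl and Atp5s were each listed in 1 table only, so these genes were not members.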

Additional observations from a re-analysis of the deposited data

Results flagged for a closer look

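The summed ratio of mt- encoded genes, ZsG-positive over ZsG-negative, differed in sign between cell classes, which is what drew attention to it. It was 0.1066 on the log2 scale in NK cells of the CD45 sort, where all 13 genes had ratios above 0. It was -0.09893 in T cells of the CD45 sort, -0.2809 in monocytes, -0.2662 in DCs and -0.1612 in T cells of the T cell sort. The difference between classes was not tested, since each gate has 1 library. In NK cells and in T cells of the CD45 sort the sign also changed with the processing, as given in the next part. Inside clusters the sign also differed in monocytes and in T cells of the T cell sort. With clusters weighted equally, a setting chosen after seeing the data, ratios were -0.030 in NK cells and -0.022 in T cells of the CD45 sort. They were -0.031 in monocytes, -0.22 in DCs and -0.015 in the T cell sort, so all were below 0.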

How the results depend on the processing

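No paired analysis was possible because each gate has 1 library per sort. The direction of the summed ratios held in 87 of 94 planned settings. Values that turned or that moved past the counting interval are given below on the log2 scale, and the cause was not tested except where the setting's own construction gives it. Equal weights for clusters, exchanged T cell libraries, and the fits of DCs without cells that hold macrophage transcripts or without cycling cells were chosen after seeing the data. With TMM factors, nuclear ratios were -0.011 (NK cells), -0.025 (T cells of the CD45 sort), 0.42 (monocytes), 0.33 (DCs) and 0.18 (the T cell sort), and mt- encoded ratios were 0.043 (NK cells), -0.18 (T cells of the CD45 sort), -0.075 (monocytes), -0.17 (DCs) and -0.19 (the T cell sort). With mt- and ribosomal protein genes left out of totals, nuclear ratios were 0.0087 (T cells of the CD45 sort), 0.16 (monocytes), 0.14 (DCs), 0.16 (the T cell sort), 0.28 (macrophages over monocytes) and 0.24 (T over NK cells), and mt- encoded ratios were 0.085 (NK cells), -0.15 (T cells of the CD45 sort), -0.34 (monocytes), -0.36 (DCs), -0.22 (the T cell sort), 0.19 (macrophages over monocytes) and 0.063 (T over NK cells). With a mitochondrial limit of 5%, nuclear ratios were 0.028 (T cells of the CD45 sort), 0.19 (the T cell sort) and 0.26 (T over NK cells), and mt- encoded ratios were -0.0057 (NK cells), -0.086 (T cells of the CD45 sort), -0.20 (DCs), -0.13 (the T cell sort), 0.091 (macrophages over monocytes) and -0.039 (T over NK cells). With a limit of 25%, the nuclear ratio was 0.043 (T cells of the CD45 sort), and mt- encoded ratios were 0.13 (NK cells), 0.018 (T cells of the CD45 sort), -0.30 (monocytes), -0.25 (DCs), -0.14 (the T cell sort), 0.21 (macrophages over monocytes) and 0.034 (T over NK cells). As a mean over cells, nuclear ratios were 0.14 (T cells of the CD45 sort), 0.18 (monocytes), 0.17 (the T cell sort) and 0.021 (T over NK cells), and mt- encoded ratios were 0.065 (NK cells), -0.086 (T cells of the CD45 sort), -0.25 (monocytes), -0.086 (the T cell sort), 0.11 (macrophages over monocytes) and 0.24 (T over NK cells). At a cluster resolution of 0.4, nuclear ratios were 0.10 (monocytes), 0.21 (DCs) and 0.37 (macrophages over monocytes), and mt- encoded ratios were -0.21 (monocytes), -0.25 (DCs) and 0.065 (macrophages over monocytes). The classes themselves changed there: the ZsG-positive library held 647 monocytes, 442 DCs and 2688 macrophages, against 897, 626 and 2254. Without lymphocytes that hold macrophage transcripts, nuclear ratios were 0.026 (NK cells) and 0.025 (T cells of the CD45 sort), and mt- encoded ratios were 0.045 (NK cells), 0.15 (T cells of the CD45 sort) and 0.033 (T over NK cells). Without cycling cells, nuclear ratios were 0.076 (T cells of the CD45 sort), 0.17 (the T cell sort), 0.22 (macrophages over monocytes) and -0.12 (T over NK cells), and mt- encoded ratios were -0.11 (T cells of the CD45 sort), -0.31 (DCs), -0.11 (the T cell sort), 0.086 (macrophages over monocytes) and 0.31 (T over NK cells). With clusters of at least 20 cells in both libraries weighted equally, nuclear ratios were 0.11 (NK cells), 0.017 (T cells of the CD45 sort), 0.21 (DCs) and 0.062 (the T cell sort), and mt- encoded ratios were -0.030 (NK cells), -0.022 (T cells of the CD45 sort), -0.031 (monocytes), -0.22 (DCs) and -0.015 (the T cell sort). Without DCs that hold macrophage transcripts, the nuclear ratio was 0.18 (DCs), and the mt- encoded ratio was -0.24 (DCs). With the T cell libraries exchanged, the nuclear ratio was -0.21 (the T cell sort), and the mt- encoded ratio was 0.16 (the T cell sort). The counts of genes past the fold depended on the limits. With no filter on UMIs, lower genes numbered 2 in NK cells, 4 in T cells of the CD45 sort, 8 in monocytes and 2 in DCs, and 1 gene was higher in T cells of the CD45 sort. With at least 500 UMIs, 5 genes were higher and 0 lower in NK cells, and 0 were lower in DCs. At a fold of 1.5, higher genes numbered 0 in NK cells, 13 in monocytes, 8 in DCs and 1 in the T cell sort, and lower genes 0 in T cells of both sorts and 2 in monocytes. Counting intervals leave out the spread between mice, which was not measured.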

Other observations

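Cox6a2, which the choice of genes by name leaves out, encodes the heart and muscle form of a complex IV subunit and was a pDC gene in these data. It reached 1073 CPM (1026 to 1122) in ZsG-negative pDCs, with a UMI in 89.2% of the 203 cells, and 742 CPM (569 to 952) in the 14 ZsG-positive pDCs. In the ZsG-negative library it was at 9.69 CPM in NK cells and 26.1 CPM in DCs, and it had no UMI in 252 monocytes, which allows up to 1.66 CPM. Cox6a1, the common paralog, was at 247 CPM in ZsG-negative pDCs, so in this class the muscle form was the more abundant of the pair by UMIs at the 3′ end. The 60 macrophage-led cells of the ZsG-positive library of the T cell sort had 128 CPM of Cox6a2, with a UMI in 23.3% of them. Over both libraries that cluster also held pDC markers, at 856 CPM of the pDC list against 69.9 in macrophages of the CD45 sort. The 2254 ZsG-positive macrophages of the CD45 sort had 2.25 CPM of Cox6a2. Ndufa4l2, also left out, had no UMI in NK cells, T cells or monocytes of either CD45 library. Atp5md and Atp5mpl, complex V genes listed under these symbols in the CD45 table only, were at 237 against 150 CPM and 229 against 172 CPM in ZsG-positive and ZsG-negative monocytes. The T cell table lists them as Usmg5 and 2010107E04Rik. In ZsG-positive and ZsG-negative T cells of that sort they were at 280 against 256 CPM and 294 against 284 CPM.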
